A study of Mus musculus with 52 samples.

Results

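A set of 10 genes of Toll-like receptor signalling, of which 4 carry sequence matches to the microRNA miR-146a, was followed through brain tissue of miR-146a knockout (KO) and wild-type (WT) mice. The 10 genes (Tlr2, Tlr3, Tlr4, Myd88, Irak4, Irak1, Irak2, Traf6, Tab2 and Card10) were taken by name from a given list out of 48526 gene IDs listed in each of 3 tables of normalised read counts. Poly-A RNA had been sequenced in 52 libraries of 14 groups. The embryonic stage was day 14 (E14), where whole cortex had 5 KO and 4 WT libraries. At postnatal day 30 (P30) the amygdala, frontal cortex and hippocampus had 4 KO and 4 WT libraries each. At postnatal day 60 (P60) the amygdala and the frontal cortex each had 4 KO and 3 WT libraries, and the hippocampus had 2 KO and 3 WT. The labels name the genotype only as miR-146a KO or WT and give neither the allele nor the background strain, and the design text says that mice of the same genotype had different mothers. P-values measure the spread between these libraries. The series title names brain development and its disorders, and the comparisons ask whether the genes differ between genotypes, regions and ages.

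Toll-like receptors recognise microbial molecules and products of damaged cells, and in the brain they are best known from microglia, the resident macrophages. Most bound receptors, but not TLR3, recruit the adaptor MYD88, which gathers the kinases IRAK4, IRAK1 and IRAK2. These kinases pass the signal to the ubiquitin ligase TRAF6 and, through TAB2, to the kinase TAK1 and the transcription factor NF-kB. NF-kB switches on miR-146a, which is known to pair with the messenger RNAs of Traf6 and Irak1, so that the microRNA acts as a feedback brake.

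The pairing rests on the seed, bases 2 to 8 of the mature microRNA, shown here in capitals because the target matches below are searched with it. The mature sequences are from RefSeq (GRCm38.p6), miR-146a-5p at chr11:43374435-43374456 on the minus strand and miR-146b-5p at chr19:46342790-46342811 on the plus strand.
miR-146a-5p: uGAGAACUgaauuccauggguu
miR-146b-5p: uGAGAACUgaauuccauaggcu
Counting from the 5′ end, the sequences differ by the substitutions G18A and U21C, both outside the seed. No other mature name among the 1679 in the RefSeq table carries this seed, so miR-146b, which the knockout label does not name, shares every seed match with miR-146a. The gene Mir146 itself (chromosome 11, 43374397 to 43374461) had 1 read in 1 of the 52 libraries, at P30, and Mir146b had 4, 14 and 9 reads in all the libraries of E14, P30 and P60. Mature microRNAs carry no poly-A tail and are not caught by this kind of library, so the genotype labels are not checked by these reads.

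Matches to the seed were searched on the transcribed strand of the longest annotated 3′ untranslated region (UTR) of each gene in GENCODE M21 (GRCm38), as AGTTCTC (bases 2 to 8), as GTTCTCA (bases 2 to 7 followed by A), or as both together, the 8-mer AGTTCTCA, so that an 8-mer holds both shorter matches and was counted as 1. Each window of 22 bases below ends with the base opposite base 1 of the microRNA, shows its match in capitals and carries its chromosome positions. The windows are those of the 4 genes with a match.
Traf6 site 1, chr2:101697945-101697966, plus: ccgctctggtgttgAGTTCTCA
Traf6 site 2, chr2:101698009-101698030, plus: ccctggaaggcttaAGTTCTCA
Traf6 site 3, chr2:101698821-101698842, plus: gtactttggagtctAGTTCTCA
Traf6 site 4, chr2:101701345-101701366, plus: gactttgctactgcAGTTCTCA
Irak1 site 1, chrX:74015393-74015414, minus: gactcagaggtcaaAGTTCTCA
Irak1 site 2, chrX:74015377-74015398, minus: ttctcatgcttggaAGTTCTCA
Irak1 site 3, chrX:74015287-74015308, minus: gcagtggaccctgctGTTCTCA
Irak2 site 1, chr6:113694119-113694140, plus: cccccaaacctcttAGTTCTCc
Irak2 site 2, chr6:113694252-113694273, plus: ccggtgtctccgcaAGTTCTCA
Irak2 site 3, chr6:113694634-113694655, plus: atgtatctgttctgtGTTCTCA
Card10 site 1, chr15:78775583-78775604, minus: acaccctggaatagAGTTCTCA

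Traf6 held 4 matches in a 3′ UTR of 4170 bases, all of them 8-mers, and 0.91% of the 1538 UTRs of like length (from 0.8 times its length to its length divided by 0.8) held at least as many. In Irak1 3 matches began at bases 40, 56 and 147 of a 1526-base UTR, and 0.35% of UTRs of like length held at least as many. Irak2 held 3 matches in 1246 bases, a number reached by 0.2% of UTRs of like length. Card10 held a single 8-mer in 1455 bases, which 19.67% of UTRs of like length matched or exceeded. Myd88, Irak4, Tab2, Tlr2, Tlr3 and Tlr4 held no match in UTRs of 987, 1913, 1782, 148, 1496 and 1321 bases. Over all 20835 genes with a 3′ UTR, 18.147% held a match and 4.065% an 8-mer. Traf6, Irak1 and Irak2 had more matches than nearly all UTRs of their length, whereas Card10 did not stand apart by number. The list named Traf6, Irak1 and Irak2 as reported targets of miR-146a, so their number of matches is not independent of the choice of genes. A match is a description of the sequence and does not show that the microRNA binds there.

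Library depth, as whole reads recovered from the normalised values, ranged between 8079912 and 9469214 in the E14 table, between 2933026 and 8141105 in the P30 table, and between 5322181 and 7379353 in the P60 table. The lowest depth belonged to a KO hippocampus library at P30 (replicate 3). Each of the 74 pairs of libraries of the same group differed by more than sampling noise, with a mean chi-square per gene of 2.31 to 23.7. Testing required the equivalent of 10 reads in a library of median depth, in at least as many libraries as the smallest group had. That left 18350, 18976 and 19239 genes at E14, P30 and P60, with 8, 9 and 9 of the 10 genes. Tlr2, with 0 to 12 reads per library, was tested nowhere, and Tlr4, with 1 to 14 reads per library at E14, was not tested at that age. Values below are normalised read counts (CPM on a scaled library size), given as mean ± SD.

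Adaptor, kinases and ligase differed widely in level. On a scale joining all 52 libraries and divided by exon length, Tab2 stood highest of the 10 genes, with group means of 20.0 to 34.3 CPM per kilobase. Irak1 followed at 8.81 to 13.04, and Traf6 at 2.95 to 7.97. Irak2 (0.210 to 5.57) and Tlr3 (0.493 to 5.15) had the largest ratios of the highest to the lowest group mean, 26.5 and 10.4. The receptor Tlr4 (0.0920 to 0.540), the adaptor Myd88 (0.50 to 1.18), the kinase Irak4 (0.339 to 0.854) and the scaffold Card10 (0.320 to 0.789) overlapped in level. Tlr2 (0.0925 to 0.372) overlapped Tlr4, Irak4 and Card10, and its highest group mean was below those of the other genes. The group means of Irak1 and Traf6 per kilobase lay above every group mean of Myd88 and of Irak4. The plot of all 10 genes by library shows these levels.

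**Figure D1:**
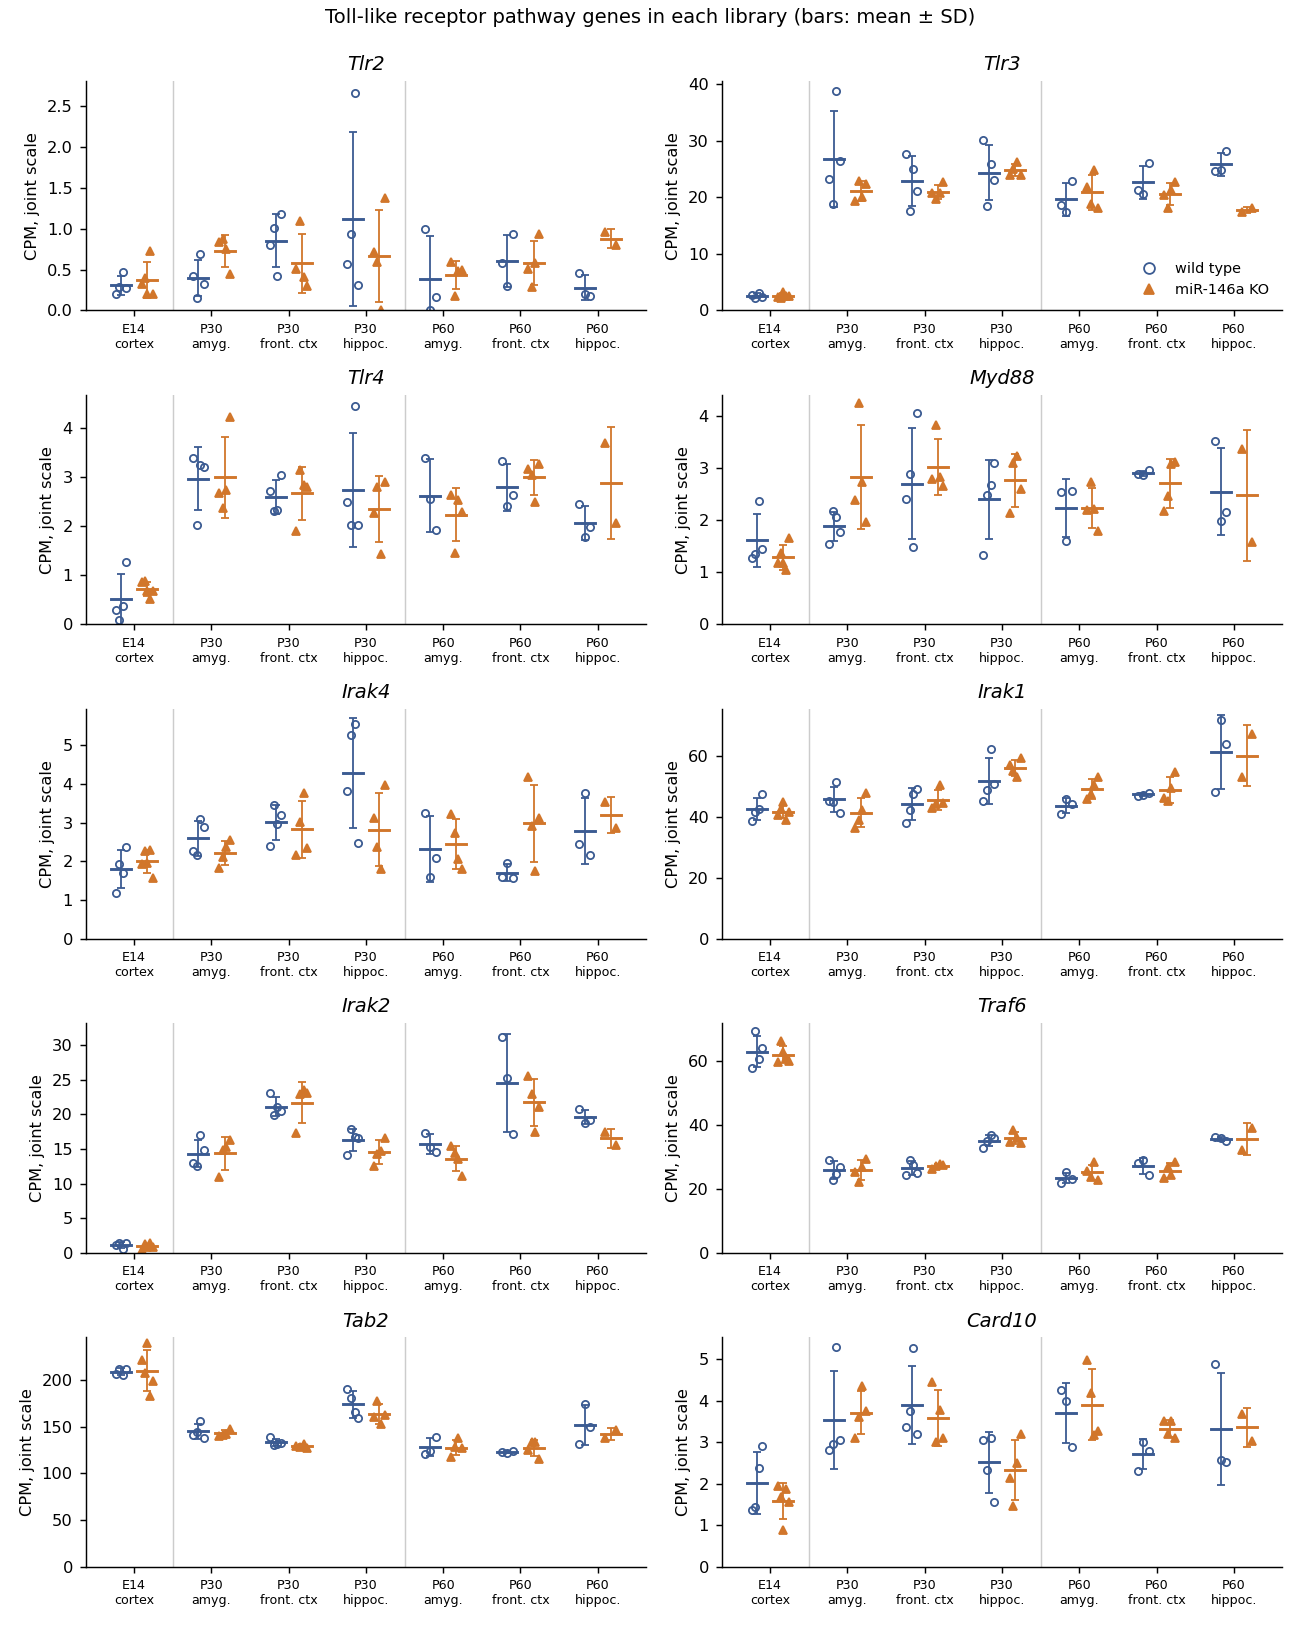
Each panel shows a gene's value in every library (y axis, CPM on a scale joining the 3 tables; x axis, age and region), with open circles for wild type, triangles for miR-146a KO, and bars for mean ± SD. The E14 libraries stand apart from the later ages for Traf6 and Tab2 (higher) and for Irak2 and Tlr3 (lower), while the symbols of the genotypes mostly overlap.

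In the comparison of KO with WT, 0 members passed the test in each of the 7 settings (E14 cortex and 3 regions at each later age). Over the 62 tests of a member (limma, adjusted over all genes of a table) the lowest adjusted p was 0.466, and 3 tests (4.84%) had an unadjusted p under 0.05. Limma's voom on the recovered reads also called 0. Few genes were called at all: 0.049% of the genes tested in the E14 cortex, 0.0263% in the P30 amygdala, 0.0158% in the P30 frontal cortex, 0.0316% in the P30 hippocampus, 0.0208% in the P60 amygdala, 0.0312% in the P60 frontal cortex and 0.0208% in the P60 hippocampus.

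Traf6 (ENSMUSG00000027164; chromosome 2, 101678429 to 101701669, plus strand) encodes the ubiquitin ligase of the pathway and is the textbook target of miR-146a. In the P30 frontal cortex it stood at 25.03, 25.55, 26.41 and 26.01 in the KO libraries and at 23.51, 27.36, 26.58 and 23.69 in WT. The KO values lay inside the range of WT. In the P60 frontal cortex it stood at 22.33, 25.57, 22.80 and 26.95 in KO and at 26.49, 27.56 and 23.10 in WT, and again the groups overlapped. Over the 7 settings the difference of KO from WT ran from -0.07 to 0.11 on the log2(value + 1) scale, and the widest 95% confidence bounds (limma) were -0.29 and 0.32. Its means corresponded to ratios of 0.949 to 1.08 of KO over WT.

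Irak1 (ENSMUSG00000031392; chromosome X, 74013914 to 74023918, minus strand) encodes the kinase that hands the signal to TRAF6. In the P60 amygdala it stood at 46.32, 48.34, 51.19 and 53.88 in KO and at 41.19, 46.56 and 44.77 in WT, where only the lowest KO library fell within the WT range. In the P30 amygdala it stood at 35.89, 39.31, 42.69 and 47.56 in KO and at 45.18, 44.69, 51.81 and 41.44 in WT, so the means lay in the opposite order. The difference over the 7 settings ran from -0.15 to 0.17 (log2), with confidence bounds (limma) from -0.36 to 0.41. Because Irak1 is X-linked, the sexes matter: read from sex-specific genes, the P30 groups of each region held 3 females and 1 male in KO and 1 female and 3 males in WT. With sex in the fit Irak1 was likewise called in none of the 7 settings.

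Irak2 (ENSMUSG00000060477; chromosome 6, 113638467 to 113695026, plus strand), the kinase that sustains the later response, had the lower mean in KO in 6 of 7 settings by log2 difference, from -0.22 to 0.02, with bounds (limma) from -0.62 to 0.34. The difference passed in none. In the P60 hippocampus it stood at 16.93 and 15.08 in KO and at 19.96, 17.91 and 18.41 in WT, so that each KO value lay under each WT value. Card10 (ENSMUSG00000033170; chromosome 15, 78775138 to 78803042, minus strand), a scaffold that links other receptors to NF-kB through BCL10 and MALT1, ran from -0.21 to 0.23 (log2). In the P60 frontal cortex it stood at 3.37, 3.04, 3.32 and 2.98 in KO and at 2.20, 2.86 and 2.68 in WT, each KO value above each WT value, at 16 to 24 reads per library (limma adjusted p = 1.00).

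The genes without a match are given next. Tlr3 (ENSMUSG00000031639; chromosome 8, 45395665 to 45411080, minus strand), the receptor for double-stranded RNA, stood at 16.78 and 17.54 in the KO and at 23.63, 23.56 and 27.01 in the WT hippocampus at P60. The KO values lay below all 3 WT values (17.2 ± 0.537, n = 2, against 24.7 ± 1.97, n = 3; log2 difference -0.50, SE 0.149, limma unadjusted p = 0.00332, adjusted p = 1.00). At P30 the hippocampus did not show it, with 23.3 ± 1.19 in KO and 23.1 ± 4.41 in WT. Libraries of KO and WT did not overlap for 2 members in the P60 hippocampus (Tlr3 and Irak2, both lower in KO), beside 11.7% of all tested genes, and for Card10 in the P60 frontal cortex, beside 5.26%. There was no such member in the E14 cortex, in the P30 amygdala, frontal cortex and hippocampus or in the P60 amygdala, beside 1.16%, 6.65%, 2.36%, 3.15% and 5.04% of genes.

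Irak4 (ENSMUSG00000059883; chromosome 15, 94543643 to 94581815, plus strand), the kinase that starts the cascade, supplied the other tests with an unadjusted p under 0.05, in opposite directions. In the P30 hippocampus it stood at 2.92, 2.20, 1.71 and 3.77 in KO and at 3.57, 5.03, 5.34 and 2.38 in WT (log2 difference -0.47, limma unadjusted p = 0.0260, adjusted p = 0.466). In the P60 frontal cortex it stood at 4.02, 2.76, 1.66 and 2.98 in KO and at 1.51, 1.86 and 1.49 in WT (0.52, limma unadjusted p = 0.0325, adjusted p = 1.00). The groups overlapped in both, at 5 to 34 reads per library. Irak4 shares 395 exon bases with Twf1 on the opposite strand, Myd88 shares 290 with Acaa1a, and Tlr3 shares 381 with an antisense gene. The kit was stranded per the labels, but whether counting used the strand is not given in the sources used here.

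Myd88 (ENSMUSG00000032508; chromosome 9, 119335934 to 119341411, minus strand) ran from -0.17 to 0.38 (log2) over the 7 settings, with its largest difference in the P30 amygdala (2.83 ± 1.01 in KO and 1.89 ± 0.280 in WT, n = 4 each, limma adjusted p = 0.578). Tab2 (ENSMUSG00000015755; chromosome 10, 7905653 to 7956230, minus strand), the adaptor between TRAF6 and TAK1, was the most narrowly measured, from -0.10 to 0.05. Tlr4 (ENSMUSG00000039005; chromosome 4, 66827584 to 66930284, plus strand), the receptor for bacterial lipopolysaccharide, stood in the P30 amygdala at 2.98 ± 0.818 in KO and 2.96 ± 0.647 in WT (n = 4 each). In that setting all 16 microglia markers had a lower mean in KO, none of them at 0, with summed values of 271 to 344 in KO and 346 to 465 in WT. Summed astrocyte markers were lower in KO as well, at 6518 to 7213 against 7300 to 10428 in WT. Both the 465 and the 10428 were of WT amygdala replicate 3. The other WT libraries stood at 346 to 365 for microglia and at 7300 to 8072 for astrocyte markers. The oligodendrocyte and choroid plexus sums of the genotypes overlapped. The part of these markers in the members' values was not tested. In bulk tissue, fewer cells of a type and less RNA per cell cannot be told apart. Tlr2 (ENSMUSG00000027995; chromosome 3, 83836272 to 83841767, minus strand), the receptor for bacterial lipoproteins, had group means of 0.267 to 1.07, and a difference was not detectable at this depth.

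**Figure D2:**
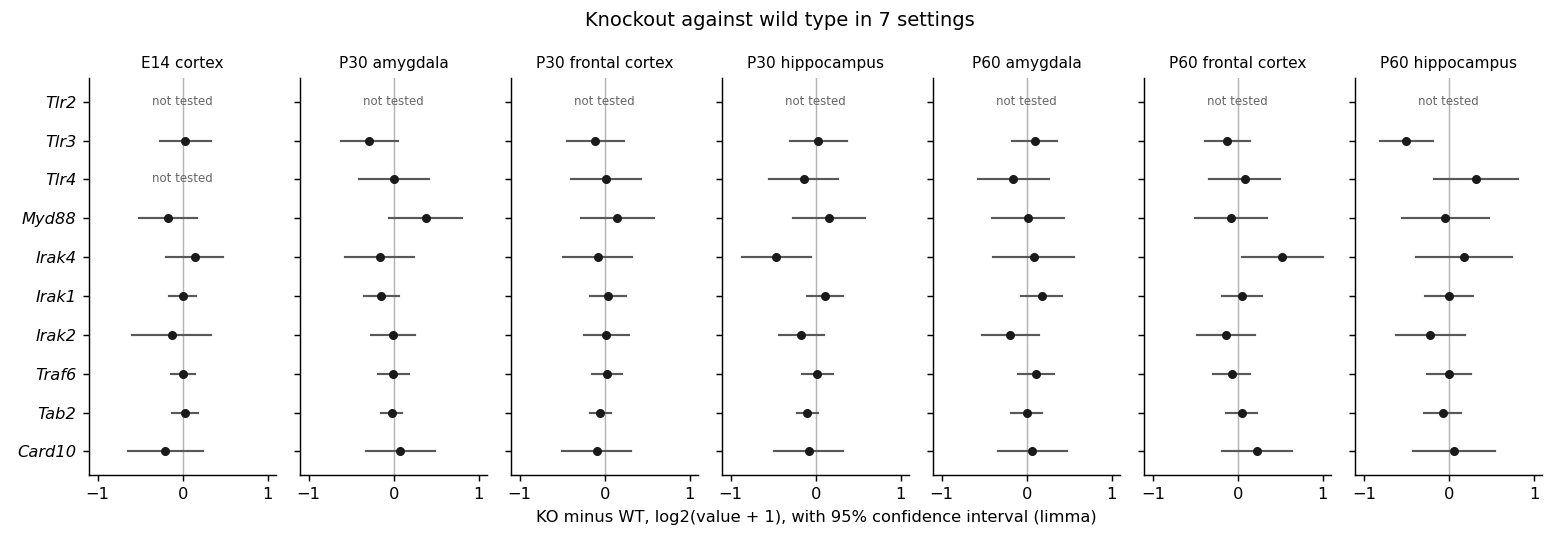
Points show the difference of KO minus WT on the log2(value + 1) scale (x axis) for each gene (rows) in 7 settings (panels), with lines for the 95% confidence interval from limma. Intervals of Traf6, Irak1 and Tab2 are narrow and all cross 0, those of low genes such as Irak4 are wide, and the 3 intervals that exclude 0 did not pass after adjustment.

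Matched and unmatched genes were also set side by side. The 4 genes with a seed match had a median log2 difference of -0.07 in the E14 cortex, against 0.03 in the 4 tested genes without one. At P30 the medians were -0.01 against -0.02 in the amygdala, 0.02 against -0.06 in the frontal cortex and -0.03 against -0.10 in the hippocampus. At P60 they were 0.08 against 0.01, -0.01 against 0.05, and 0.00 against -0.04 in the same order of regions. A higher level in KO was the direction of 1 to 3 of the 4 matched genes in each setting. Whether the genotype difference varied between regions was tested by an interaction (limma). It called 0 of 18976 genes at P30 (0%; 871 genes with an unadjusted p under 0.05) and 0 of 19239 at P60 (0%; 415 genes), and voom called 0 at both ages. Of the members, Tlr3 at P60 alone had an unadjusted p under 0.05 in this test (limma unadjusted p = 0.0226, adjusted p = 1.00).

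Between regions of WT brain, Traf6 was higher in the hippocampus than in the frontal cortex and amygdala at both ages, and Irak2 was lower in the amygdala and hippocampus than in the frontal cortex at P30. At P30, 3 of 9 tested members differed between hippocampus and frontal cortex, beside 30.1% of all tested genes, 2 of 9 between amygdala and frontal cortex, beside 22.9%, and 2 of 9 between amygdala and hippocampus, beside 30.2%. At P60 the counts were 3 of 9 beside 17.9%, 0 of 9 beside 9.6% (limma; 1 at an unadjusted p under 0.05, and 1 called by voom) and 2 of 9 beside 16.7%. With 9 tested members, shares of this size are near the background. In the KO libraries the counts were 4, 2 and 3 of 9 at P30, beside 29.5%, 22.1% and 30.5%, and 1 of 9 in each comparison at P60, beside 17.6%, 23.6% and 13.6%. Averaged over both genotypes, an alternative chosen after seeing the data, they were 5, 2 and 4 of 9 at P30, beside 43.3%, 37.3% and 44.1%, and 3, 1 and 2 at P60, beside 32.8%, 31.4% and 29%.

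Traf6 separated the hippocampus. At P30 its WT libraries stood at 30.35, 33.31, 35.27 and 34.18 in the hippocampus, at 23.51, 27.36, 26.58 and 23.69 in the frontal cortex, and at 29.00, 22.50, 24.79 and 26.67 in the amygdala. All 4 hippocampus values exceeded every value of the other regions. The mean was 1.32-fold that of the frontal cortex (log2 difference 0.38, SE 0.0871, limma adjusted p = 0.00133), and the amygdala lay 0.36 below the hippocampus (limma adjusted p = 0.00244, 0.0621 with the replicate number as a block). At P60 the WT libraries stood at 34.63, 34.12 and 33.37 in the hippocampus, at 26.49, 27.56 and 23.10 in the frontal cortex and at 21.87, 25.38 and 23.03 in the amygdala, with no overlap of the hippocampus with either. Here the hippocampus was 0.39 above the frontal cortex (limma adjusted p = 0.0165) and the amygdala 0.52 below the hippocampus (limma adjusted p = 0.00277). The first of these calls ended without frontal cortex replicate 3 (0.0829) or hippocampus replicate 2 (0.0521).

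The KO libraries gave the same contrast of Traf6 side by side. In KO the hippocampus stood at 32.14, 35.63, 34.28 and 32.62 at P30 and at 30.91 and 37.70 at P60, all above the KO frontal cortex and KO amygdala libraries of the same age. The difference from the frontal cortex was 0.37 at P30 (limma adjusted p = 0.00167) and 0.47 at P60 (limma adjusted p = 0.00816). As the mean of both genotypes it was 0.38 (limma adjusted p = 1.54e-05) and 0.43 (limma adjusted p = 0.000345).

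Tab2 moved with Traf6 at P30. Its WT libraries stood at 177.64, 172.33, 159.45 and 152.01 in the hippocampus and at 134.11, 122.94, 127.57 and 126.34 in the frontal cortex, without overlap (1.29-fold, log2 difference 0.37, SE 0.0600, limma adjusted p = 3.37e-05). The amygdala, at 141.18, 143.48, 156.46 and 137.67, lay between them, 0.18 above the frontal cortex (limma adjusted p = 0.0337) and 0.19 below the hippocampus (limma adjusted p = 0.0177). Both amygdala calls ended in the blocked fit (limma adjusted p = 0.0979 and 0.171), and leaving out a library ended the first in 6 of 8 fits (all but those without amygdala replicate 4 or frontal cortex replicate 1) and the second in 3 of 8 (amygdala replicate 4, hippocampus replicates 1 and 2). At P60 the hippocampus libraries, at 126.20, 165.51 and 143.65, were above the frontal cortex ones at 116.93, 115.65 and 118.32 (0.30, limma adjusted p = 0.0297). That call ended in the blocked fit (0.107), in the KO libraries (0.18, limma adjusted p = 0.222) and in 5 of 6 fits that left out a library (up to 0.189), all but the one without hippocampus replicate 1.

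Irak1 showed the same order with less certainty. At P60 its WT libraries stood at 46.22, 68.62 and 61.42 in the hippocampus, at 44.60, 44.98 and 46.04 in the frontal cortex and at 41.19, 46.56 and 44.77 in the amygdala. Hippocampus replicate 1 was close to the other regions, whereas the other two lay well above. The hippocampus was 0.35 above the frontal cortex (limma adjusted p = 0.0498) and the amygdala 0.39 below the hippocampus (limma adjusted p = 0.0337), calls that ended in 5 of 6 fits that left out a library (all but the one without hippocampus replicate 1), in the blocked fit (limma adjusted p = 0.103 and 0.0714), and in the KO libraries (0.111 and 0.320). At P30 the WT difference of 0.21 did not pass (limma adjusted p = 0.128, 0.0492 without hippocampus replicate 1), and that in KO did (0.28, limma adjusted p = 0.0373). The mean of both genotypes passed at both ages (limma adjusted p = 0.00719 and 0.00724).

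Irak2 differed from this order and was highest in the frontal cortex. At P30 its WT libraries stood at 22.27, 18.79, 20.44 and 19.50 there, at 12.95, 12.48, 17.04 and 14.78 in the amygdala and at 13.21, 17.03, 16.03 and 15.90 in the hippocampus. Every frontal cortex value exceeded every value of the other regions, and the amygdala and hippocampus overlapped. The amygdala was lower by 0.48 (log2, limma adjusted p = 0.00750) and the hippocampus by 0.36 (limma adjusted p = 0.0314, 0.0809 with the block, 0.0931 and 0.0630 without frontal cortex replicates 1 and 3, and 0.110 without hippocampus replicate 1). At P60 the frontal cortex libraries were spread, at 29.64, 23.99 and 16.39, over amygdala values of 17.33, 15.52 and 14.65. The amygdala difference of -0.50 did not pass (limma adjusted p = 0.0778), but it did with the replicate number as a block (0.0447), with TMM scaling (0.0454), and without frontal cortex replicate 3 (0.00835). In the KO libraries it was -0.51 at P30 (limma adjusted p = 0.00518) and -0.55 at P60 (limma adjusted p = 0.0109).

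**Figure D3:**
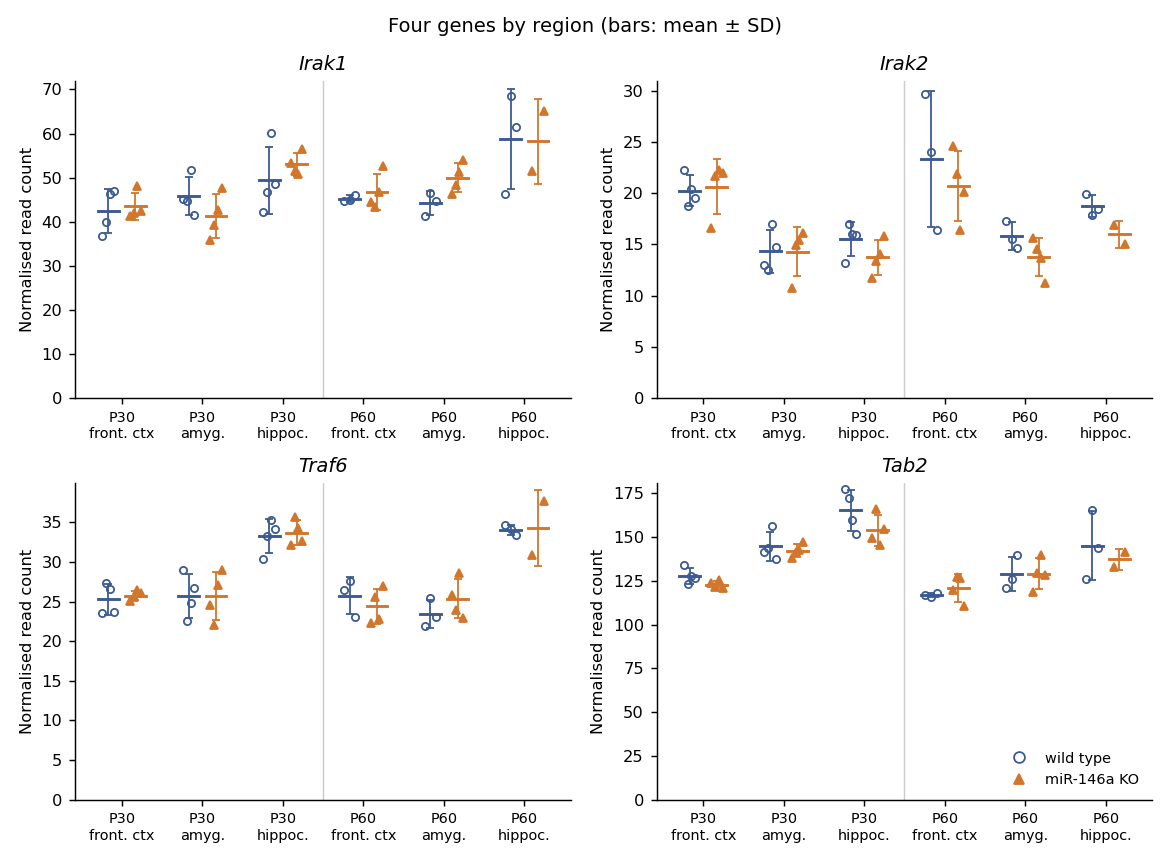
Normalised read counts (y axis) of Irak1, Irak2, Traf6 and Tab2 by age and region (x axis) are shown for every library, with open circles for wild type, triangles for KO, and bars for mean ± SD. Traf6 is highest in the hippocampus at both ages and in both genotypes, and Irak2 is highest in the frontal cortex at P30.

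Card10 was lower in the hippocampus than in the frontal cortex at P30 by mean, at 2.39 ± 0.688 and 3.74 ± 0.934 in WT (n = 4 each), a difference of -0.49 that did not pass (limma adjusted p = 0.0651) and that passed as the mean of both genotypes (-0.48, limma adjusted p = 0.00679). At P60 the order was not seen, with 3.19 ± 1.31 and 2.58 ± 0.341 (n = 3 each). Tlr3, Tlr4, Myd88 and Irak4 passed in none of the 6 WT comparisons between regions. Regions differ in cellular makeup, and markers moved with them. In the WT hippocampus at P30 all 10 oligodendrocyte markers had a higher mean than in the frontal cortex (sums of 5413 to 18593 and 4655 to 7411). There 14 of 16 microglia markers were lower (309 to 350 and 355 to 378). All 10 choroid plexus markers also had a higher mean (50.7 to 5893 and 19.4 to 288). Both the 18593 and the 5893 were of hippocampus replicate 3. The other hippocampus libraries, at 50.7 to 213 for choroid plexus, lay within the frontal cortex range. At P60 the sums in hippocampus and frontal cortex were 2567 to 3686 and 2292 to 4707 for oligodendrocyte markers, and 36.0 to 314 and 18.9 to 45.5 for choroid plexus markers. None of these markers was at 0 in a whole group, and their part in the regional differences was not tested.

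Between E14 and P30, Traf6 and Tab2 were at a higher level in the embryo, and the receptors Tlr3 and Tlr4 and the kinase Irak2 at a higher level later. The tables of the ages were normalised separately, so that levels on the joint scale are a description without a test, and whole cortex was set against frontal cortex. In WT, 7 of the 10 genes had no overlap between the E14 cortex and the P30 frontal cortex, beside 71.8% of 20844 genes. This share is near the background, so a change with age does not set these genes apart. Traf6 was 2.38-fold higher at E14 (62.8 ± 4.95 and 26.4 ± 2.20 CPM on the joint scale, n = 4 each), and Tab2 was 1.57-fold higher (209 ± 3.44 and 133 ± 3.82). Irak1 was level, at 42.6 ± 3.68 and 44.4 ± 5.18. The other kinases were higher at P30: Irak2 was 18.97-fold higher at P30 (1.11 ± 0.442 at E14, from 5 to 16 reads per library, and 21.1 ± 1.38), and Irak4 1.68-fold higher (1.79 ± 0.494 and 3.01 ± 0.453). Among the receptors Tlr3 was 8.90-fold higher at P30 (2.57 ± 0.433 and 22.8 ± 4.42) and Tlr4 5.08-fold higher (0.511 ± 0.522 and 2.60 ± 0.352). Card10 was 1.93-fold higher at P30, and Myd88 and Tlr2 overlapped.

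KO libraries gave the same picture side by side: Traf6 was 2.28-fold and Tab2 1.63-fold higher at E14, and Irak2 was 23.5-fold, Tlr3 8.07-fold and Tlr4 3.67-fold higher at P30. There too 7 of 10 genes did not overlap, beside 68.5% of all genes, with Myd88 (2.35-fold higher at P30) among them in place of Irak4. In the deposited values of WT, summed microglia markers stood at 224 ± 24.3 and 364 ± 11.1 in these groups, with none of the 16 at 0, and summed astrocyte markers at 631 ± 38.2 and 8490 ± 415. Their part in the differences was not tested. Between P30 and P60 fewer genes parted. In the frontal cortex 3 of 10 genes did not overlap (Irak4, Card10 and Tab2, all lower at P60), beside 12.2% of genes. The amygdala had 0 of 10, beside 11.9%, and the hippocampus had Irak2 alone (1.201-fold higher at P60), beside 12.2%. In KO there were 0 of 10 in the frontal cortex, beside 9.56%, Tab2 in the amygdala (0.894 times the P30 level), beside 7.82%, and Tlr3 and Tab2 in the hippocampus (0.717 and 0.870 times), beside 20.7%.

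The 64 other genes of the pathway were lists of receptors, adaptors and kinases, brakes, and CARD partners, chosen with earlier results of these data known. Of these genes, 41 were tested at E14 and 53 at each later age. Only 1 of them was called between KO and WT in any setting. Tnip1 (ENSMUSG00000020400), which encodes a partner of the ubiquitin-editing enzyme A20 that restrains NF-kB, rose in the KO frontal cortex at P60, where its libraries stood at 33.25 to 40.06 against 18.94 to 22.95 in WT (36.8 ± 2.81, n = 4, and 21.4 ± 2.15, n = 3; log2 difference 0.76, SE 0.105, limma adjusted p = 0.00354, 0.0691 without WT replicate 1). Its mean was above WT in the other 6 settings as well (0.33 to 0.61, limma adjusted p from 0.212 to 1.00), without overlap in 5 of those 6. Tnip1 lies on chromosome 11 (54910785 to 54962917), the chromosome that carries Mir146, and its 752-base 3′ UTR held no seed match. The cause of its higher level in KO was not tested, and the labels give neither the allele nor the background strain. In the remaining settings 0 genes of the lists were called by limma or voom. At an unadjusted p under 0.05 (limma) there was 1 of 41 in the E14 cortex. There were 8, 2 and 5 of 53 in the P30 amygdala, frontal cortex and hippocampus, and 2 and 1 of 53 in the P60 amygdala and hippocampus. Tnip1 was among them in each of these settings, and was the 1 gene counted in the E14 cortex and in the P60 hippocampus. The share of all tested genes under that threshold is not given here, so these counts are a description.

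Between WT regions the same lists held more calls than between genotypes, as did all genes. In the hippocampus against the frontal cortex at P30, 5 of 53 were higher and 10 lower, beside 30.1% of all tested genes called in either direction. Irak3, the inactive IRAK that blocks the complex (2.36-fold), the kinase Ripk1 (1.48-fold), the ligase Peli1, which acts on IRAK1 (1.35-fold), and the adaptor Sarm1 (1.27-fold) were higher. Map2k3 (0.584-fold), the JNK gene Mapk9 (0.674-fold), Ube2v1, a partner in building ubiquitin chains (0.475-fold), and the brake Pik3ap1 (0.590-fold) were lower (limma adjusted p from 3.68e-07 to 0.0492). The Irak3 difference was of the opposite sign in KO (-0.29, limma adjusted p = 0.380), and in WT it did not pass without hippocampus replicate 3 (0.0679). At P60, 2 were higher (Traf3 1.36-fold, Sarm1 1.33-fold) and 2 lower (Mapk9 0.702-fold, Mapk8 0.782-fold; limma adjusted p from 0.000959 to 0.0439), beside 17.9% of all genes. Mapk9 was thus lower in the hippocampus at both ages.

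In the amygdala the scavenger receptor Cd36, a co-receptor of TLR2, had the largest ratios of the genes named. It was 3.72-fold the frontal cortex level at P30 and 5.40-fold at P60 (limma adjusted p = 0.00798 and 0.000450), and 6.74-fold and 8.07-fold the hippocampus level (limma adjusted p = 0.000352 and 6.26e-05), with overlapping libraries at P30 and none at P60. Against the frontal cortex at P30, 7 of 53 were higher, among them Ripk1 (1.84-fold), the flagellin receptor Tlr5 (1.92-fold) and Map2k6 (1.39-fold), and 3 were lower, the brake Tollip (0.830-fold), Mapk9 (0.851-fold) and Mapk14 (0.862-fold), beside 22.9% of all genes. Against the hippocampus at P30, 8 were higher, among them Tlr5 (2.67-fold), Pik3ap1 (1.82-fold) and Map2k3 (1.58-fold), and 2 lower, the brake Tank (0.773-fold) and Sarm1 (0.819-fold), beside 30.2%. At P60, 3 were higher than in the frontal cortex (Cd36, Peli1 1.42-fold, Rnf216 1.27-fold) and 4 than in the hippocampus (Cd36, Chuk 1.34-fold, Mapk9 1.26-fold, Usp4 1.23-fold), and none was lower, beside 9.6% and 16.7% of all genes. Calls that held in all the settings run were those of Peli1 and Mapk9 in hippocampus against frontal cortex at P30 and Mapk9 there at P60, of Ripk1, Map2k6, Tollip and Mapk9 in amygdala against frontal cortex at P30, and of Cd36 in the amygdala except against the frontal cortex at P30. The other named calls ended in at least 1 setting, and that of Tlr5 against the frontal cortex in 7 of 8 fits that left out a library.

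The genes most like each member were ranked by Pearson's r of log2 values over the 24 P30 libraries among 14196 genes. The libraries share regions and normalisation, so r is a description. Traf6 was most like Pcsk6 (0.92, and 0.76 over the 19 P60 libraries), Serpina3n (0.91, 0.86) and Nrp1 (0.89, 0.79). With group means removed the P30 values were 0.68, 0.55 and 0.41, so much of the likeness lay in the regional pattern. For Tab2 the nearest genes were Rpl28 (0.93, 0.85), Kmt2c (0.92, 0.77) and Dnajc1 (0.90, 0.55). Irak2 ran with Myo18a (0.95, 0.63), Smurf1 (0.91, 0.70) and Tmem151a (0.90, 0.51), and Irak1 with Edem2 (0.83, 0.58), Kif1c (0.77, 0.56) and Myh9 (0.76, 0.12).

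The remaining members follow, again with r at P30 and then at P60. The ranking used the P30 libraries, and r at P60 was lower for each gene named here, as it was for those above. Tlr4 was nearest to Vcam1 (0.82, 0.17), Igfbp2 (0.79, 0.39) and Cd74 (0.78, 0.12), and Tlr3 to Rpl31-ps8 (0.75, 0.38), Myl12a (0.75, 0.21) and Disp3 (0.73, -0.02). Myd88 was nearest to Pcdhb12 (0.79, -0.05), Syap1 (0.76, 0.02) and Ranbp6 (0.75, 0.19). Irak4 was nearest to Rilp (0.77, -0.13), Muc1 (0.74, -0.00) and Grid2ip (0.73, -0.16), and Card10 to Fsd1 (0.81, 0.14), Cracr2b (0.81, -0.11) and Notch3 (0.79, 0.29). Among the members themselves, Traf6 and Irak1 had r = 0.68 at P30 and 0.71 at P60, and 0.36 and 0.26 with group means removed. Traf6 and Tab2 had 0.62 and 0.53, and -0.18 and 0.03 within groups.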

How the data were processed

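The authors deposited 3 tables, 1 per age, of normalised read counts (other unit: CPM on a scaled library size) with decimal commas; their scaling factors are not stated. The submitters' processing notes name the tools limma, DESeq and edgeR and the build mm9 without saying what each did; for the aligner, the counter and the annotation, not given in the sources used here. Column totals were 945861 to 1039135. Of the values up to 200 reads, 100.0% were whole multiples of 1 read within 0.1 read, which gave the depth. Gene IDs were matched to GENCODE M21 (48058 of 48526), whose GRCm38 positions are printed.

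Tests used limma 3.58.1 in R 4.3.3 (trend and robust variance) on log2(value + 1), which understates changes of low genes, with all groups of an age in 1 fit, Benjamini-Hochberg adjustment over all tested genes and a threshold of 0.05. A tested gene also had 15 reads over its table. Pathway genes are named when called, up to 4 per direction in WT region comparisons, with a mean of at least 1; likeness names 3 genes per member. Ages were set on a joint scale by TMM. The fit was tested on simulated data. The members and lists were chosen with earlier results of these data known. Growth protocols of a human stem cell line were not used. The labels were followed where the design text names other stages and regions. Whether regions of an age share animals is not stated. The main fits used no pairs, and the replicate number as a block was run as an alternative. At P60, KO and WT libraries were most alike within their own number for 3 of 3 pairs in the amygdala (r of 0.220 to 0.329). The same held for 2 of 2 pairs in the hippocampus (0.502 to 0.629) and 2 of 3 in the frontal cortex (0.032 to 0.233). It held for all WT pairs between amygdala and frontal cortex (0.154 to 0.190) and amygdala and hippocampus (0.108 to 0.164) at P60. Between hippocampus and frontal cortex it held for 2 of 3 WT pairs at P60 and 1 of 4 at P30. At P30 it held for 3 of 4 WT pairs in each comparison with the amygdala. Between KO and WT it held for 1 of 4 pairs in each P30 region and for 0 of 4 in the E14 cortex.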

Additional observations from a re-analysis of the deposited data

Results flagged for a closer look

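In 8 of 100 sets of libraries examined (a gene in a group of 4 or 5), the highest or lowest library was set apart from the others by Dixon's criterion, which chance alone gives in about 1 of 20 sets. Irak1 stood at 48.07 in KO P30 frontal cortex replicate 3, with the others at 41.4 to 42.52, and Irak2 at 16.61 in replicate 1 of that group, with the others at 21.68 to 22.3. Myd88 stood at 3.61 in replicate 2 of the same group, with the others at 2.52 to 2.69. In the WT E14 cortex, replicate 3 stood apart for Myd88 (2.69, others 1.5 to 1.67) and for Tab2 (232.88, others 241.9 to 242.47). Tlr4 stood at 2.0 in WT P30 amygdala replicate 2 (others 3.21 to 3.38) and at 4.27 in WT P30 hippocampus replicate 3 (others 1.92 to 2.32). Card10 stood at 5.34 in WT P30 amygdala replicate 3 (others 2.82 to 3.05).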

How the results depend on the processing

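Called members between KO and WT, and in the interactions, stayed at 0 under every setting run. Seed matches over all annotated UTRs numbered the same in each member as in the longest UTR; counted as 8-mers alone they were 4 in Traf6, 2 in Irak1, 1 in Irak2 and 1 in Card10. The count test by DESeq or edgeR that had been planned was not run, and voom on the recovered reads took its place; voom, the KO libraries, the mean of both genotypes and the leave-one-out of ages were chosen after seeing the data. For the members called between WT regions, amygdala against frontal cortex at P30 fell from 2 to 1 with TMM, no low value filter, voom, only the groups compared, the replicate block, or without WT number 3 in all regions. Hippocampus against frontal cortex at P30 rose from 3 to 5 with the mean of both genotypes. Amygdala against hippocampus at P30 went from 2 to 1 with only the groups compared, to 0 with the replicate block and to 4 with the mean of both genotypes. At P60, hippocampus against frontal cortex went from 3, and amygdala against hippocampus from 2, to 1 with no low value filter, only the groups compared, the replicate block or the KO libraries. Amygdala against frontal cortex at P60 went from 0 to 1 with TMM, voom, the replicate block, the KO libraries or the mean of both genotypes. Leaving out a library gave 1 to 2, 1 to 3, 0 to 3, 0 to 1 and 1 to 2 for amygdala against frontal cortex and amygdala against hippocampus at P30, and hippocampus against frontal cortex, amygdala against frontal cortex and amygdala against hippocampus at P60 (0 in the third without hippocampus replicate 2). Members without overlap from P30 to P60 ran from 0 to 2 in the amygdala and from 1 to 4 in the hippocampus. The cause of these moves was not tested. Irak3, in hippocampus against frontal cortex at P30, was at -0.289 in the KO libraries against 0.755 in WT.

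Genes called over all genes moved by over 1.5 times as follows. In the E14 cortex 9 became 5 (pseudocount 0.1, voom, without KO replicate 4 or WT replicate 3) and 3 (replicate block). In the P30 amygdala 5 became 11 (no filter) and 25 (without WT number 3), in the frontal cortex 3 became 5 with each, and in the hippocampus 6 became 2 (only the groups compared), 1 (block), 14 (without WT number 3), 11 without KO replicate 4, 266 without WT replicate 1 and 12 without WT replicate 3. In the P60 amygdala 4 became 2 with the block, in the frontal cortex 6 became 60 with the block and 3 without WT replicate 1, and in the hippocampus 4 became 20 with the block and 0 with only the groups compared. With the block Tnip1 was also called in the P60 hippocampus (limma adjusted p = 0.0341, over 2 pairs). Between WT regions, hippocampus against frontal cortex at P30 went from 5709 to 3584 (block), amygdala against hippocampus from 5740 to 3083 (only the groups compared) and 3110 (block), and at P60 from 3204 to 1868 and 1928, and to 1933 and 2036 without hippocampus replicates 2 and 3. Hippocampus against frontal cortex at P60 went from 3451 to 2086 without hippocampus replicate 2. The KO libraries gave 4548 for amygdala against frontal cortex at P60, where WT gave 1846, and 1066 and 860 without amygdala replicates 1 and 2, and 896 and 785 without frontal cortex replicates 1 and 2. The mean of both genotypes gave 7075 against 4344 for amygdala against frontal cortex at P30, and 6308, 6033 and 5572 against 3451, 1846 and 3204 at P60. The interaction gave 14 genes at P30 without WT hippocampus replicate 1 and 1 at P60 without KO hippocampus replicate 2. Tlr2 had too few reads to test, and low counts limit Tlr4, Myd88, Irak4 and Card10, whose SE of the KO difference ran from 0.155 to 0.272 (log2), against 0.0600 to 0.104 for Tab2.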
